A study of Rattus norvegicus with 48 samples.

Results

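RNA-seq was performed on rat cerebral endothelial cells (CECs), the cells that form the wall of the brain capillaries and carry the blood-brain barrier, and the genes described here are 8 parts of the Wnt and beta-catenin pathway that maintains this barrier: Adgra2, Apcdd1, Axin1, Axin2, Apc, Bcl9, Bcl9l and Btrc. They were listed by symbol and matched to Ensembl identifiers, which gave 7 genes of the 32624 features in the count files (ENSRNOG00000012991 for Adgra2, ENSRNOG00000043304 for Apcdd1, ENSRNOG00000055010 for Axin2, ENSRNOG00000020423 for Apc, ENSRNOG00000017516 for Bcl9, ENSRNOG00000012420 for Bcl9l and ENSRNOG00000016280 for Btrc). Axin1 is not analysed here. All 7 had at least 1 read in each sample, as had 13050 features in all.

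The cells came from the cerebral cortex of male Wistar-Han rats. AL rats ate ad libitum, and F1, F2 and F3 rats had water but no food for 1, 2 and 3 days. Cortices of several rats were pooled for each isolation, microglia were removed by their CD11b and the cells bearing CD31 were kept. Each group had 3 samples from independent isolations, named i, j and k, and each sample was sequenced as 4 technical replicates, which were summed. Reads assigned to genes ranged from 20718644 to 25960874 per sample. The chi-square divided by its degrees of freedom, which is near 1 where only read sampling separates libraries, was 1.004 to 1.022 between technical replicates and 9.746 to 51.5 between samples of the same group. Sample F2 j stood apart from the other F2 samples, at 48.84 and 51.5 against 11.47 between those. Many differences of single genes that involve F2, but not all, are therefore given below also without F2 j.

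Wnt ligands bind a Frizzled receptor together with Lrp5 or Lrp6, and this stops the destruction of beta-catenin, which then enters the nucleus and switches on target genes through TCF and LEF factors. In brain vessels the ligands Wnt7a and Wnt7b signal through a complex that contains Adgra2 (also called Gpr124) and Reck, and this signal is known to drive the growth of vessels into the brain and to maintain their barrier properties. Apcdd1 is a membrane-bound Wnt inhibitor. Axin1, Axin2 and Apc are scaffolds of the complex that marks beta-catenin for destruction, Btrc is the F-box protein that recognises the marked beta-catenin, and Bcl9 and Bcl9l are co-activators that join beta-catenin to its nuclear partners. Apcdd1 and Axin2 are also target genes of the pathway, and so serve as readouts of it.

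The stretch before the start of Axin2 is shown because Axin2 is a widely used target gene of this pathway and its window holds the letters that TCF and LEF factors recognise. It comes from RefSeq (build GRCr8, plus strand, chr10:94398535-94398784), runs 5′ to 3′ over the 250 bases before the annotated start, and has in capitals each match to CTTTG followed by a pair of letters that are each A or T.
Axin2: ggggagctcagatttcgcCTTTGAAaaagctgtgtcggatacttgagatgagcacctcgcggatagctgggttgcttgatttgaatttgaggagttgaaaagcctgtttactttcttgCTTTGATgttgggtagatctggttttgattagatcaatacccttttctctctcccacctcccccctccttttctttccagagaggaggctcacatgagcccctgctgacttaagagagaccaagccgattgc
One match, CTTTGAA, began 232 bases before the start and the other, CTTTGAT, began 132 bases before it, both on the strand of the gene. Both strands were searched, and no other motif was. At least 2 matches were present in 1.73% of the 33469 rat windows of this length, and at least 1 match in 14.9%. A window was given for 5 of the 8 genes, and the other 4, those of Apcdd1, Apc, Bcl9 and Btrc, held no match. These are matches of letters in a short window and are not evidence of binding.

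The comparisons asked which of these genes changed in CECs after each length of fast, and between successive days of the fast. None of the 7 genes passed the test in any of the 5 comparisons or in the joint test of the 4 groups (edgeR quasi-likelihood test, Benjamini-Hochberg adjustment over all 13050 genes, threshold 0.05). Over all genes the same test called 6.56% in F1 against AL, 0.858% in F2 against AL, 12% in F3 against AL, 1.43% in F2 against F1, 5.94% in F3 against F2 and 10.1% in the joint test. At an unadjusted p under 0.05 there were 2 of the 7 genes in F3 against AL, Adgra2 and Apcdd1, where 26% of all genes were under it. Apcdd1 alone was under it in F2 against F1, in F3 against F2 and in the joint test, where 17.3%, 22% and 24.8% of all genes were under it, and none of the 7 was in F1 or F2 against AL, against 20.6% and 12.8%. With DESeq2 as the test, Adgra2 was called in F3 against AL, where DESeq2 called 14.4% of all genes, and Apcdd1 in F3 against F2 (9.52%) and in the joint test (16%), and no other gene of the 7 was called.

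**Figure D1:**
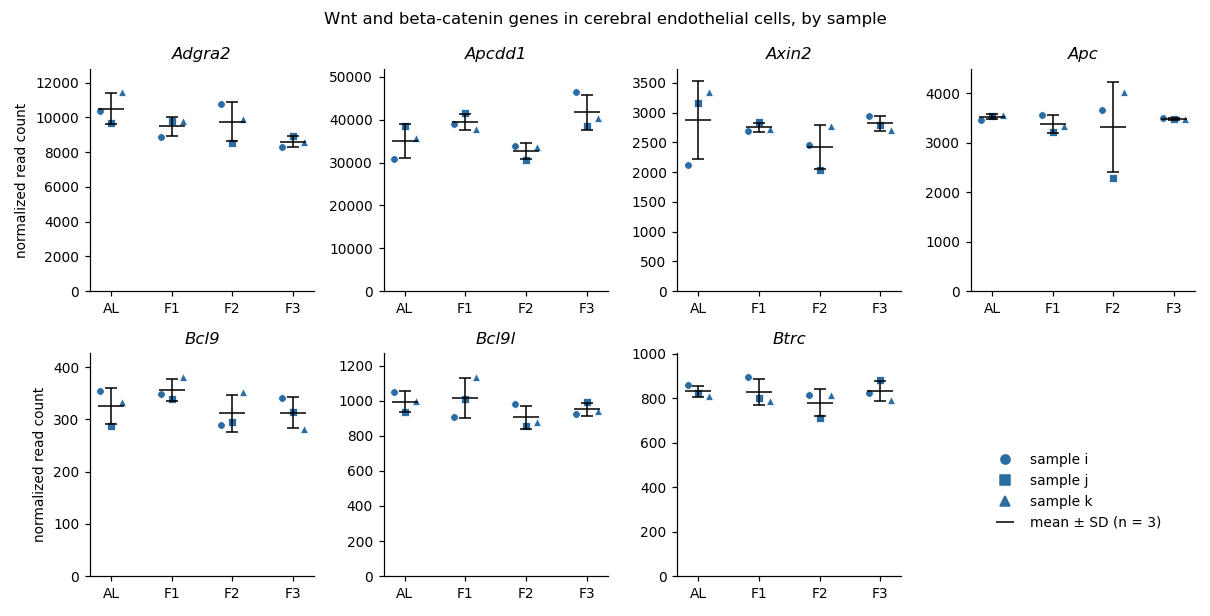
Normalized read count (vertical axis, from 0) of each of the 7 genes in the 3 samples of AL, F1, F2 and F3, with a point per sample and the group mean ± SD as a black bar. Adgra2 was below every AL sample in the 3 F3 samples, Apcdd1 was higher in each F3 sample than in each F2 sample, and sample F2 j was the lowest of its group for Apc, at 2296.

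Log2 fold changes (LFC) of the 7 genes lay between -0.29 and 0.35 over the 5 comparisons, with standard errors from 0.081 to 0.148. Their 95% confidence intervals reached at most from -0.56 to 0.56, which as a ratio of levels is 0.678 to 1.477, so changes beyond these bounds lay outside every interval. In F3 against AL the median absolute LFC was 0.057 for the 7 genes and 0.177 for all genes, in F1 against AL it was 0.061 and 0.158, in F2 against AL 0.098 and 0.131, and in F3 against F2 0.093 and 0.168. In F2 against F1 it was higher for the 7 genes, 0.168 against 0.147. With F2 j left out, the median of the 7 genes was 0.053 in F2 against AL, 0.128 in F2 against F1 and 0.107 in F3 against F2, given for the 7 genes only. The medians were not matched for read number. All genes here include those with as few as 1 read in a sample, where counting adds to the LFC, whereas the 7 had at least 284. Any other cells left in a sample were sequenced with the CECs, so fewer cells of a type and less RNA per cell cannot be told apart. The library kit keeps strand, but the strand setting of the counting is not given in the sources used here, so reads of a gene and of an antisense partner cannot be told apart either.

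**Figure D2:**
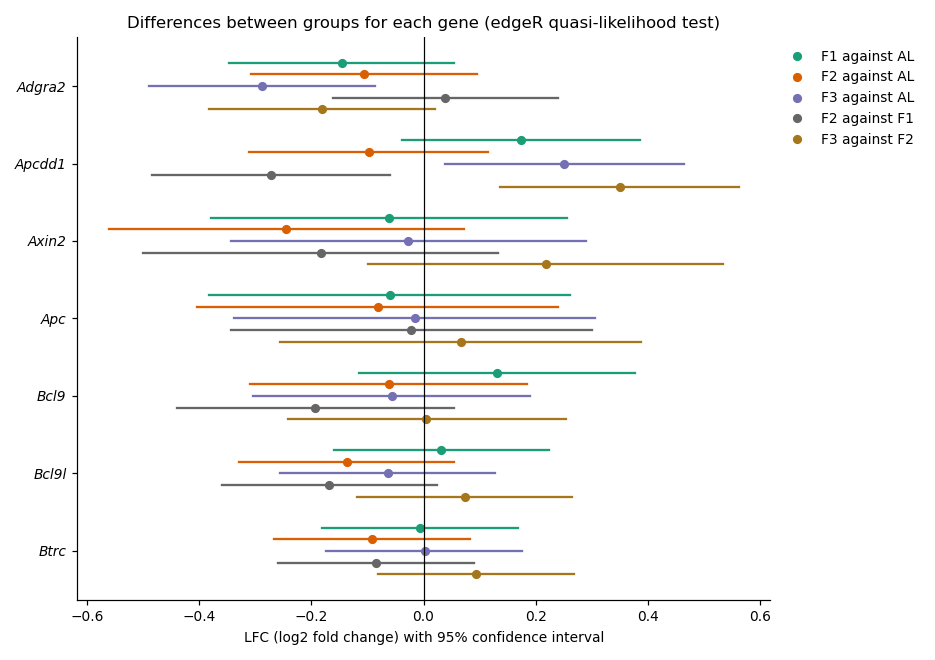
LFC (horizontal axis, log2 scale) of the 7 genes in the 5 comparisons, each point with its 95% confidence interval from the edgeR fit. The intervals of Adgra2 in F3 against AL and of Apcdd1 in F3 against AL, F2 against F1 and F3 against F2 leave out 0, and the other 31 include it.

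Adgra2, the co-receptor that makes CECs sensitive to Wnt7 ligands, was highest in AL rats and lowest in F3 rats. Its normalized read counts were 10388.5, 9664 and 11440 in AL samples i, j and k, 8877, 9791 and 9801 in F1, 10801, 8554 and 9898 in F2, and 8287, 8914 and 8594 in F3. The 3 F3 samples were all below the 3 AL samples and were the group with the least spread, with means of 8598 ± 313.5 (SD, n = 3) in F3 and 10497 ± 893.0 (SD, n = 3) in AL. F1 and F2 samples overlapped both AL and each other.

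The LFC of Adgra2 was -0.29 ± 0.094 (SE) in F3 against AL, with a 95% confidence interval of -0.49 to -0.09 and an adjusted p of 0.0619 (edgeR), which did not pass the threshold. Groups without overlap and lower in F3 were seen for 18% of all genes in this comparison. The LFC was -0.15 in F1 against AL (adjusted p = 0.422), -0.11 in F2 against AL (adjusted p = 0.683) and -0.18 in F3 against F2 (adjusted p = 0.279). Its adjusted p in F3 against AL was below the threshold in 6 of 21 alternative fits, ranging from 0.0146 to 0.208 with LFC from -0.35 to -0.22. The call appeared with DESeq2 (adjusted p = 0.0321), with total counts as the scale (0.0278), with only the 6 samples compared (0.0285), without AL j (0.0461), without F2 i (0.0484) and without F2 j (0.0146). Over all genes these fits called 1879, 1619, 2031, 1271, 1548 and 2366 in this order, and the fit as reported called 1572. Without AL k, the sample with the highest value, the LFC was -0.22 and the adjusted p 0.208. Without F2 j the LFC was -0.02 in F2 against AL and -0.27 in F3 against F2, with adjusted p of 0.939 and 0.0792.

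Some marker levels also separated the AL and F3 samples. The summed normalized reads of 8 endothelial markers were 788941 to 856240 in AL and 951265 to 969131 in F3. Most of that difference was in Slc2a1, the glucose transporter of the barrier, with means of 283813 in AL and 406911 in F3, and the other 7 markers summed to 531621 to 561884 in AL and 549363 to 563047.5 in F3, which overlap. Of 2 astrocyte markers, Aldoc, an enzyme of glycolysis, held nearly all reads, at 1825.5 to 2155 in AL and 1545.5 to 1587.7 in F3, and did not pass the test (adjusted p = 0.111, edgeR). The part of these genes in the values of Adgra2 was not tested. With the mean of the pericyte markers as a covariate, the LFC of Adgra2 in F3 against AL was -0.29 with an adjusted p of 0.0742.

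Apcdd1, the membrane-bound inhibitor and target gene, was lowest in F2 rats and highest in F3 rats. Sample by sample, normalized read counts were 30858, 38513 and 35716 in AL samples i, j and k, 39056, 41527 and 37925 in F1, 33923, 30622 and 33625 in F2, and 46355, 38464 and 40278.5 in F3. All F2 samples were below all F1 and all F3 samples, and the AL samples ran from the F2 range into the F3 range. Group means were 35029 ± 3873.5 in AL, 39503 ± 1842 in F1, 32724 ± 1826 in F2 and 41699 ± 4132.8 in F3 (SD, n = 3 each).

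In F3 against F2 the LFC of Apcdd1 was 0.35 ± 0.099 (SE), with a 95% confidence interval of 0.14 to 0.56 and an adjusted p of 0.0529 (edgeR), just above the threshold. Groups without overlap and higher in F3 were seen for 14.7% of all genes in this comparison. The LFC was -0.27 in F2 against F1 (adjusted p = 0.178), where groups without overlap and lower in F2 were seen for 12% of all genes. It was 0.25 in F3 against AL (adjusted p = 0.122), 0.17 in F1 against AL (adjusted p = 0.354) and -0.10 in F2 against AL (adjusted p = 0.727), and in the joint test the adjusted p was 0.0903 (0.106 without F2 j). Its adjusted p in F3 against F2 was below the threshold in 5 of 21 alternative fits, ranging from 0.00934 to 0.223 with LFC from 0.27 to 0.40. The call appeared with DESeq2 (0.00934), with total counts as the scale (0.0394), with the edgeR filter on low counts (0.0444), without AL i (0.0402) and without AL j (0.0497). Over all genes these fits called 1242, 777, 876, 755 and 723 in this order, and the fit as reported called 775. Without F2 j the LFC was 0.30 with an adjusted p of 0.106, and without F3 i, the highest sample, 0.27 with an adjusted p of 0.223. In F2 against F1 and in F2 against AL it was -0.23 and -0.05 without F2 j (adjusted p of 0.280 and 0.856). With the pericyte covariate the LFC in F3 against F2 was 0.37 with an adjusted p of 0.0662.

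**Figure D3:**
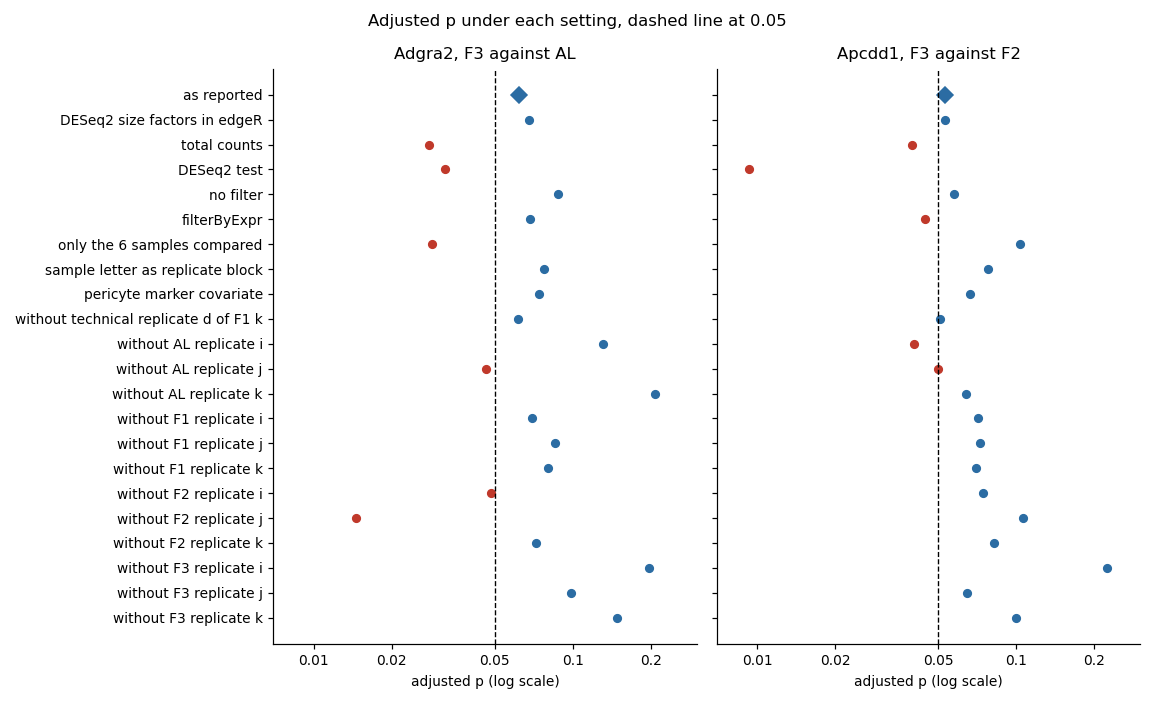
Adjusted p (horizontal axis, log scale) of Adgra2 in F3 against AL and of Apcdd1 in F3 against F2 as reported (diamond) and 21 alternatives (circles), red where it is at most 0.05. The reported values, 0.0619 and 0.0529, are just right of the dashed line at 0.05, and 6 and 5 of the alternatives lie left of it.

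Axin2, the other target gene among the 7 and itself a scaffold of the destruction complex, had groups that overlapped in every comparison. Its normalized read counts were 2127, 3161 and 3341 in AL samples i, j and k, 2694, 2843 and 2729 in F1, 2456, 2041 and 2783 in F2, and 2953, 2801 and 2711 in F3. AL i and F2 j were the lowest samples and the other AL samples the highest, so the AL samples enclosed the F1 and F3 samples. Means were 2876 ± 655.4 in AL, 2755 ± 77.6 in F1, 2426 ± 371.8 in F2 and 2821.5 ± 122.6 in F3 (SD, n = 3 each). The LFC was -0.06 in F1, -0.24 in F2 and -0.03 in F3 against AL, with adjusted p of 0.855, 0.520 and 0.935 (edgeR). The interval in F2 against AL was -0.56 to 0.07, and without AL i the LFC was -0.42 with an adjusted p of 0.0997. Without F2 j it was -0.13 with an adjusted p of 0.751, and over all alternatives the adjusted p was 0.0997 to 0.888.

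Apc, the large scaffold that holds beta-catenin in the destruction complex, had nearly the same level in AL and F3 rats. Sample by sample, normalized read counts were 3464, 3534 and 3561 in AL samples i, j and k, 3564, 3219 and 3343 in F1, 3665, 2296 and 4013 in F2, and 3499, 3467 and 3475 in F3. The F3 samples differed by an SD of 16.6 around 3480 and the AL samples by 49.9 around 3520, whereas F2 held both the lowest and the highest of the 12 samples. The LFC was -0.02 in F3 against AL, with a 95% confidence interval of -0.34 to 0.31 and an adjusted p of 0.964 (edgeR). In F2 against AL it was -0.08 (adjusted p = 0.861), and without F2 j it was 0.12 (adjusted p = 0.398), with the direction turned. Over all alternatives the adjusted p of this comparison was 0.398 to 0.950.

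Btrc, which presents marked beta-catenin to the ubiquitin ligase, had the smallest spread of the 7 genes within groups. Its normalized read counts were 858, 826 and 811 in AL samples i, j and k, 894, 803 and 786 in F1, 816, 709 and 816 in F2, and 822, 882 and 793 in F3. The groups overlapped in every comparison. The LFC was -0.01, -0.09 and 0.00 in F1, F2 and F3 against AL, with adjusted p of 0.976, 0.685 and 0.993 (edgeR), and in F3 against AL the 95% confidence interval was -0.17 to 0.18.

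The co-activators Bcl9 and Bcl9l were highest in F1 and lowest in F2 by their means, with overlapping groups in every comparison. Bcl9 had normalized read counts of 354, 288 and 333 in AL samples i, j and k, 349, 339 and 380 in F1, 289, 294 and 352 in F2, and 341.5, 314 and 282 in F3. Its LFC was 0.13, -0.06 and -0.06 in F1, F2 and F3 against AL (adjusted p of 0.573, 0.867 and 0.813, edgeR). Bcl9l had 1052, 933 and 998 in AL samples i, j and k, 907.5, 1008 and 1133 in F1, 980, 854 and 879 in F2, and 922.5, 993.5 and 938 in F3. Its LFC was 0.03, -0.14 and -0.06 in the same comparisons (adjusted p of 0.883, 0.558 and 0.718). Without F2 j the LFC in F2 against AL was -0.02 for Bcl9, -0.10 for Bcl9l and -0.03 for Btrc.

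The 7 genes differed in how precisely they were measured. Bcl9 had the fewest reads, 284 to 385 per sample, for which counting alone gives an SD of 5.53% of the level, against 9.35% observed within groups. Apcdd1 had 30909 to 49947 reads per sample, with 0.518% from counting and 8.36% observed. The within-group SD was 6.05% for Btrc, 7.70% for Bcl9l, 8.18% for Adgra2, 13.5% for Apc and 14.1% for Axin2, so for the genes with many reads the spread between isolations, not the read number, set the width of the intervals. These p-values measure the spread between isolations of pooled rats.

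By group means, F2 was the lowest group for 6 of the 7 genes, all but Adgra2, and F2 was the lowest group for 26.1% of all genes. All 7 LFC values were below 0 in F2 against AL, from -0.24 to -0.06 with a median of -0.10, where 52.1% of all genes were below 0 and the median of all genes was -0.01. In F3 against F2 only Adgra2 was below 0, against 51.1% of all genes, and without F2 j it was joined by Apc and Bcl9, which made 3 of the 7. Without F2 j, the group means were lowest in F2 for 4 of the 7 genes, against 25% of all genes, and 6 of the 7 LFC values were below 0 in F2 against AL. None of these 7 differences passed the test. In F1 and F3 against AL, 4 and 5 of the 7 genes were below 0, against 50.8% and 50.9% of all genes.

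Across the 12 samples, the closest pairs among the 7 genes on log2 CPM (reads scaled to a common library size) were Apc with Btrc (Pearson r = 0.71), Apcdd1 with Axin2 (r = 0.66) and Axin2 with Apc (r = 0.56), and Adgra2 and Apcdd1 ran opposite to each other (r = -0.43). These are descriptions over samples that share groups and scaling. Of 1241 other genes with a symbol and a mean of at least 100 normalized reads, the 5 most like Adgra2 were Arhgef18 (r = 0.895), Ccnd2 (r = 0.873), Ablim1, Bcorl1 and Acss3 (r = 0.832). Ccnd2 encodes cyclin D2 and is a target gene in the lists below. The 5 most like Apcdd1 were Bcl3 (r = 0.947), Agpat4, Arl5a, Ap4e1 and C1H10orf76 (r = 0.908), and the 5 most like Axin2 were Septin2 (r = 0.870), Ak4, Canx, Aggf1 and Ccdc127 (r = 0.839).

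The rest of the pathway was described from 6 lists that hold 133 genes by role (ligands, receptors, inhibitors at the membrane, destruction of beta-catenin, its transcription complex, and target genes). Symbols were at hand for 2043 features, of which 96.7% begin with A, B or C, so 12 genes besides the 7 could be read, and no ligand was among them. In F1 and in F2 against AL, 1 of the 12 fell and none rose, in F3 against AL 2 fell and none rose, and in F2 against F1 and F3 against F2 none passed. Genes that fell made up 2.69%, 0.368% and 5.77% of all genes in F1, F2 and F3 against AL. The median LFC of the 12 was -0.22, -0.01 and -0.15 in these comparisons, and that of all genes was -0.004, -0.008 and -0.005. The median of the 12 in F2 against AL was 0.05 without F2 j. In that fit Amer1, which helps to bring Apc and Axin to the cell membrane, also passed in F1 and F3 against AL, where it was higher, and Ccnd2 passed in F3 against AL, where it was lower. The same fit called more genes in all, 1451 of 13090 in F1 against AL and 2366 of 13090 in F3 against AL.

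By list, Atp6ap2, a receptor component, and Bambi, listed with the membrane inhibitors and the target genes, did not pass in any comparison. Of 6 further genes of beta-catenin destruction (Apc2, Amer1, Cacybp, Ankrd6, Caprin2 and Ccdc88c), Cacybp alone fell and the other 5 did not pass. The 2 further genes of the transcription complex, Cby1 and Aes, did not pass. Of the 3 further target genes (Bambi, Ccnd1 and Ccnd2), Ccnd1 fell in F3 against AL.

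**Figure D4:**
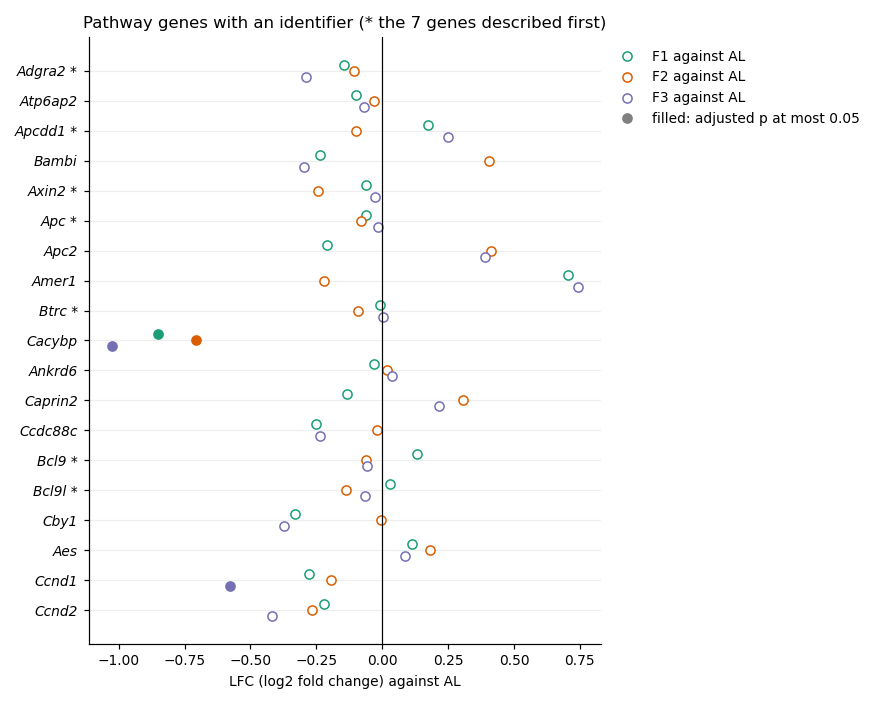
LFC against AL (horizontal axis, log2 scale) in F1, F2 and F3 for the 19 pathway genes that could be read, with the 7 genes described first marked by an asterisk and filled circles where the adjusted p is at most 0.05. Cacybp is filled in all 3 comparisons, from -1.03 to -0.71, Ccnd1 is filled in F3 at -0.58, and the 7 genes lie between -0.29 and 0.25.

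Cacybp encodes a protein that links the ubiquitin ligase Siah1 to Skp1 and takes part in the destruction of beta-catenin by a route other than Btrc. Sample by sample, normalized read counts were 1454, 1585 and 1781 in AL samples i, j and k, 816, 980 and 875 in F1, 1068.5, 1048 and 833 in F2, and 913, 789 and 663 in F3. Every fasted sample was below every AL sample. The LFC was -0.85 ± 0.127 (SE) in F1, -0.71 ± 0.126 in F2 and -1.03 ± 0.127 in F3 against AL, with adjusted p of 0.00182, 0.0189 and 0.00024 (edgeR), and 0.000763 in the joint test. The F1 and F3 calls and the joint call held in every alternative run, and the F2 call was lost with only the 6 samples compared (adjusted p = 0.0908), without AL k (0.106) and without F2 k (0.0527), the adjusted p over all its alternatives being 8.2e-05 to 0.106. It held without F2 j, with an LFC of -0.76 and an adjusted p of 0.0373.

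Ccnd1 encodes cyclin D1, which drives cells from G1 into DNA synthesis, and is a target gene of the pathway in many tissues. Its normalized read counts were 216, 173.5 and 192 in AL samples i, j and k, 150, 134.5 and 195 in F1, 160, 180 and 168 in F2, and 121, 127 and 142 in F3. The F3 samples were below all AL samples, and F1 and F2 overlapped AL. The LFC in F3 against AL was -0.58 ± 0.149 (SE) with an adjusted p of 0.0218 (edgeR), and in F1 and F2 against AL it was -0.28 and -0.19 with adjusted p of 0.312 and 0.632. Leaving out F2 j gave an LFC in F2 against AL of -0.24 with an adjusted p of 0.547. The call in F3 was lost without AL i (0.0956), AL k (0.0549), F3 i (0.0977) or F3 j (0.0654) and held in the other 17 of 21 alternatives, with adjusted p from 0.00655 to 0.0977 over all. Slc2a1 was higher in every fasted sample, 355198 to 416026, than in every AL sample, 257320 to 309123, and its part in the values of Cacybp and Ccnd1 was not tested.

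**Figure D5:**
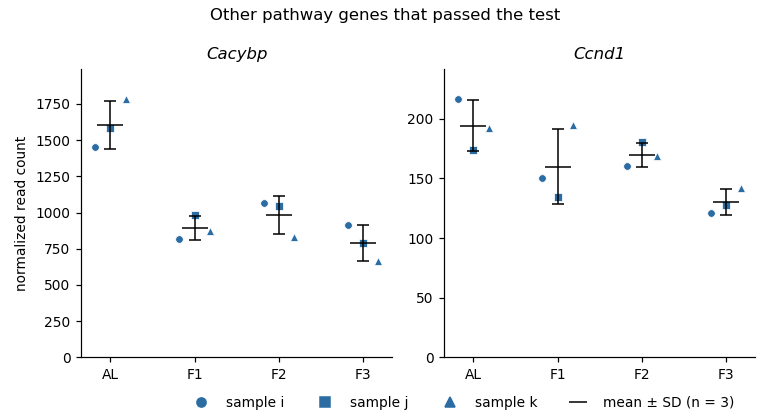
Normalized read count (vertical axis, from 0) of Cacybp and Ccnd1 in each sample of AL, F1, F2 and F3, with the group mean ± SD in black. All 9 fasted samples of Cacybp, 663 to 1068.5, are below the 3 AL samples, 1454 to 1781, and for Ccnd1 the 3 F3 samples are the group below all AL samples.

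The identity of the cells was checked on marker genes with an identifier. The summed normalized reads of 8 of 16 endothelial markers, which include Pecam1 (CD31), were 932590 to 962051 in F1 and 937222 to 995368 in F2, also above the AL range. Slc2a1 held most of this excess too, with means of 383178 in F1 and 375491 in F2, and the other 7 summed to 559203 to 578723 in F1, which overlaps AL, and to 582024 to 613111 in F2, which does not. Slc2a1 and Adgrl4, an endothelial adhesion receptor, passed the test, both higher in F1 and F3 against AL. Adgrl4 was also called higher in F3 against F2 (LFC of 0.38, edgeR adjusted p = 0.0323). The other 6, Pecam1 among them, passed in no comparison. In F2 against F1, Pecam1 and Adgrl4 were lower without overlap (LFC of -0.21 and -0.27, edgeR adjusted p of 0.175 and 0.151). Apold1, another of these markers, was higher there without overlap (LFC of 0.36, edgeR adjusted p = 0.228). Groups without overlap in F2 against F1 were lower for 12% and higher for 9.75% of all genes. The part of Pecam1 in the values of Apcdd1 was not tested. Pericyte markers (Abcc9, Anpep and Atp13a5, 3 of 10 listed) summed to 2555.5 to 6301 in AL, 2801 to 3134 in F1, 3396 to 6636 in F2 and 2267.5 to 6184 in F3, with none called. AL i, in which Apcdd1 and Axin2 were low, had the highest pericyte sum of its group. F3 i also had the highest pericyte sum of its group, and there Apcdd1 was the highest of all samples and Axin2 the highest of F3. The summed reads of 6 microglial and macrophage markers ranged from 56.7 to 133.6, of 2 neuronal markers from 4.1 to 23.9, of 2 astrocyte markers from 1534.6 to 2279, of 3 fibroblast markers from 405.5 to 1018.6, of 1 smooth muscle marker from 126.1 to 365.9, of 1 oligodendrocyte marker from 15.6 to 34.1 and of 1 red blood cell marker from 36.1 to 110.3. None of the markers of other cells passed the test. Some sums were higher in F2 without overlap. Fibroblast sums were 451.9 to 542.6 in F1 and 675.7 to 970.3 in F2. Pericyte, neuronal and oligodendrocyte sums in F2 were also above F1. The smooth muscle sum was 130.4 to 210.7 in AL and 235.6 to 365.9 in F2, but overlapped F1. Microglial, astrocyte and red blood cell sums overlapped in F1 and F2. With the pericyte covariate the LFC of Apcdd1 in F2 against F1 was -0.31 (edgeR adjusted p = 0.297). Only markers with at least 1 read in each sample were summed, so these sums cannot show that a marker was absent. The part of these other cells in the values of the 7 genes was not tested beyond the pericyte covariate.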

How the data were processed

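Poly(A) RNA of 12 samples was sequenced with a stranded kit, and 48 files hold the 4 technical replicates of each. The values are raw read counts per gene as deposited by the authors, whole numbers without normalization. Before deposit, low-quality reads were dropped, STAR placed the rest on the rat genome (Rnor_6.0 in the submitters' processing notes), reads with several places were discarded, and HTSeq 0.5.3 counted reads on exons. Genes with near-identical copies are therefore undercounted.

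Technical replicates were summed. Genes with at least 1 read in each sample entered 1 robust quasi-likelihood fit of edgeR 4.0.16 (R 4.3.3) with TMM scaling and a mean for each of the 4 groups. Adjusted p-values are Benjamini-Hochberg values over every gene tested, and the threshold was 0.05. For the normalized read counts, each count was divided by its sample's TMM-scaled library size and set to the average library. SE is the LFC divided by the square root of F. The procedure was run on simulated data with changes larger than any seen in the 7 genes. How well it finds smaller differences was not tested. Comparisons with AL share the AL samples.

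The alternatives were DESeq2 1.42.0 size factors or total counts as the scale, the DESeq2 test, no filter or the edgeR filter on low counts, a fit of the 6 samples of a comparison alone, a block for the sample letter, a pericyte covariate (mean log2 CPM, prior count 2), each sample left out in turn, and technical replicate d of F1 k left out, since its labels disagree.

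Symbols were paired with Ensembl identifiers through the study's gene tables, of which a shortened copy was used, giving symbols for 2043 features. Of the pathway lists, genes called in any test are named with values, and for Adgra2, Apcdd1 and Axin2 the 5 genes of highest Pearson r. The 8 genes, the lists and the markers were chosen with earlier results of these data known. Gene positions and lengths were not used here, so levels are not compared between genes.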

Additional observations from a re-analysis of the deposited data

How the results depend on the processing

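Of the 7 genes, the number called was 0 in each of the 6 tests and rose to 1 in F3 against AL (Adgra2) with total counts, with the DESeq2 test and with only the 6 samples compared, to 1 in F3 against F2 (Apcdd1) with total counts, the DESeq2 test and the edgeR filter, and to 1 in the joint test (Apcdd1) with DESeq2; with each sample left out in turn it ranged from 0 to 1 in F3 against AL and in F3 against F2. The cause was not tested. Among the 7 genes, Cacybp and Ccnd1, fold changes that turned direction were at most 0.185 in size, with adjusted p of at least 0.148. Outside single samples left out, these were Apc in F1 against AL (0.0033) and Btrc in F1 against AL (0.0056) with the pericyte covariate, Btrc in F1 against AL without a filter (0.0015), Btrc in F3 against AL without technical replicate d of F1 k (-0.0003), and, with total counts, Bcl9l in F1 against AL (-0.0307), Btrc in F3 against AL (-0.0444) and Bcl9 in F3 against F2 (-0.0044). With each sample left out in turn, LFC ranged in F1 against AL from -0.2394 to 0.0587 for Axin2, from -0.0539 to 0.1068 for Bcl9l and from -0.0656 to 0.0297 for Btrc. In F2 against AL it ranged from -0.2403 to 0.1249 for Apc and from -0.1582 to 0.0080 for Bcl9, and in F3 against AL from -0.2042 to 0.0940 for Axin2, from -0.1445 to 0.0107 for Bcl9 and from -0.0418 to 0.0331 for Btrc. In F2 against F1 it ranged from -0.0407 to 0.1251 for Adgra2, from -0.1797 to 0.1855 for Apc and from -0.0242 to 0.2522 for Ccnd1, and in F3 against F2 from -0.1414 to 0.2239 for Apc and from -0.0635 to 0.1014 for Bcl9. A fit that leaves out 1 sample takes its spread from all groups. With the sample letter as a replicate block, none of the 7 genes was called, the adjusted p was 0.0773 for Adgra2 in F3 against AL and 0.0774 for Apcdd1 in F3 against F2, and the count over all genes in F2 against F1 fell from 186 to 108, while no call of Cacybp or Ccnd1 changed. Whether a letter marks a shared experiment is not given in the sources used here. Deviations of same-letter samples correlated from -0.017 to 0.139, above 0.1 in 2 of 18 pairs and above 0 in 15, against 13 of 36 pairs of unlike letters. Not every sample correlated most with its own letter (AL k with F3 j at 0.204). These correlations do not settle whether the samples are paired. The fit as reported has no block, and the block is given as an alternative. Over all genes, counts of calls ranged over the alternatives from 306 to 1451 in F1 against AL (856 as reported), from 0 to 359 in F2 against AL (112), from 790 to 2366 in F3 against AL (1572), from 0 to 616 in F2 against F1 (186), from 164 to 1242 in F3 against F2 (775) and from 738 to 2090 in the joint test (1321). DESeq2 gave the highest count in the joint test and in every comparison that involves F2. The highest count in F1 and in F3 against AL came without F2 j, and the lowest came without F1 j in F1 against AL (306) and in F2 against F1 (0), with only the 6 samples compared in F2 against AL (0), and without F3 i in the other comparisons and the joint test. With total counts the share of calls that were higher was 38.7% in place of 59.0% in F1 against AL, 46.0% in place of 57.1% in F2 against AL and 41.0% in place of 52.1% in F3 against AL. The 20718644 to 25960874 reads per sample gave Bcl9, the least read of the 7 genes, 284 to 385 reads, which limits its precision.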

Other observations

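Of the 12 other pathway genes that could be read, 5 that passed no test in the fit as reported (Amer1, Apc2, Bambi, Cby1 and Ccnd2, singled out after their values were seen) had groups that did not overlap in some comparisons. Over all genes, groups did not overlap and were higher or lower in 14.6% and 14.1% in F1 against AL, 17.6% and 18% in F3 against AL, 9.75% and 12% in F2 against F1, and 14.7% and 12.1% in F3 against F2. Of the 12, this was 1 and 2, 1 and 4, 2 and 1, and 1 and 3, those called included. Amer1 had normalized read counts of 108, 118 and 171 in AL samples i, j and k, 242, 207 and 197 in F1, 121, 55.5 and 162 in F2, and 228, 223 and 210.5 in F3, so the F1 and F3 samples were all above the AL and F2 samples. Its LFC was 0.71 in F1 and 0.74 in F3 against AL (edgeR adjusted p of 0.174 and 0.115) and 0.96 in F3 against F2 (adjusted p = 0.0661), and without F2 j, the lowest sample, the last was 0.64 with an adjusted p of 0.0728 (0.0111 to 0.183 over the alternatives), while the F1 and F3 differences from AL passed (adjusted p of 0.0162 and 0.00741). Bambi, a decoy receptor for the TGF-beta family that is also linked to Wnt signalling, had 565, 404 and 345.5 in AL, 408.5, 384 and 327 in F1, 498, 772 and 476 in F2, and 317, 375 and 380 in F3, with F2 above F1 and F3. Its LFC was -0.70 in F3 against F2 (adjusted p = 0.0626), and without F2 j, the highest sample, it was -0.45 with an adjusted p of 0.177 (0.0111 to 0.212 over the alternatives). DESeq2 called Amer1 and Bambi in F2 against F1 and in F3 against F2, with adjusted p of 0.0304 and 0.0111 for Amer1 and 0.0386 and 0.0111 for Bambi. Over all genes DESeq2 called 616 of 13050 in F2 against F1 and 1242 of 13050 in F3 against F2. The fit without F2 j called 1451 of 13090 in F1 against AL and 2366 of 13090 in F3 against AL. Cby1, which binds beta-catenin and competes with TCF factors, had 199, 198 and 202 in AL, 139, 147 and 190 in F1, 195.5, 214 and 187 in F2, and 156, 150 and 156 in F3. Its LFC was -0.33 in F1 and -0.37 in F3 against AL, each without overlap (adjusted p of 0.152 and 0.0744, edgeR). Over the alternatives these adjusted p were 0.0479 to 0.395 and 0.0438 to 0.171. In F3 against F2 the LFC of Cby1 was -0.37, also without overlap (edgeR adjusted p = 0.103, 0.0682 to 0.225 over the alternatives). Ccnd2 was lower in F3 than in AL (LFC of -0.42, edgeR adjusted p = 0.132, 0.0413 to 0.320 over the alternatives) and Apc2, a relative of Apc, was higher in F2 than in F1 (LFC of 0.62, adjusted p = 0.429, 0.129 to 0.639 over the alternatives), each without overlap. With the pericyte covariate the difference of Apc2 turned to -0.21.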
